A study of Mus musculus with 8 samples.

Results

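The 9 genes described here carry peptides to the cell surface on MHC class I molecules: B2m, H2-K1, H2-D1, Tap1, Tap2, Tapbp, Psmb8, Psmb9 and Nlrc5. They were taken by symbol from the 27775 gene rows of 2 single-cell count tables, and each of the 9 had at least 1 UMI (unique molecular identifier, a tag that marks one captured RNA molecule) in both tables. The tables hold pancreatic ductal adenocarcinoma cells of 2 untreated mice of the KPC strain, 1 medium size tumor and 1 large size tumor, each read as 4 technical replicates that the deposited table sums. Among the alleles both mice carried were LSL-Trp53R172H/+ and Pdx-1-Cre, so mutant Trp53 was switched on wherever the Pdx-1 promoter had driven Cre, in the pancreatic lineage. The sources used here give no ages. With 1 tumor of each size, the size of a tumor cannot be told apart from the mouse, the dissociation or the depth of the library. There is no replicate error, so intervals are 95% intervals for counting error (exact Poisson for a level, exact binomial for a share, conditional binomial for a ratio), and no p-value is given.

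MHC class I molecules show fragments of a cell's own proteins to CD8 T cells and are read by NK cells. The proteasome cuts proteins into peptides, and interferon replaces its catalytic subunits with Psmb8 and Psmb9, giving the immunoproteasome. Tap1 and Tap2 pump peptides into the endoplasmic reticulum, tapasin (Tapbp) holds the empty molecule at that pump, and the finished molecule pairs a heavy chain (H2-K1 or H2-D1) with the shared light chain B2m. Nlrc5 is the transactivator that switches on class I genes, and loss of class I display is a known route by which carcinomas escape T cells. The tables count RNA and say nothing of protein at the surface.

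The medium size tumor gave 2812 cells with a median of 5456.5 UMIs, and the large size tumor gave 1533 cells with a median of 1037 UMIs. They shared 5 cell barcodes. Cells were clustered within each tumor and named from marker lists. In the medium tumor 2331 cells in 8 clusters were epithelial-like, the class that stands for the carcinoma here, and 238 cells in 2 clusters were macrophage-like. A further 74 cells were mesothelial-like, 67 stromal-like and 38 endothelial-like, while 64 cells carried epithelial and macrophage markers together and stayed unnamed. In the large tumor 1219 cells in 7 clusters were epithelial-like, 253 macrophage-like, 50 stromal-like and 11 endothelial-like. Epcam and Krt19, epithelial genes kept out of the marker lists, stood at 1091 and 1721 CPM (the group's UMIs of a gene for each 1000000 of all its UMIs) among epithelial-like cells of the medium tumor, against 96.7 and 114 CPM in its macrophage-like cells. Ptprc, the pan-leukocyte gene, stood at 3.37 and 134 CPM in the same order. The stromal-like cluster also carried 4 of 7 smooth muscle and pericyte markers, the mesothelial-like cluster 5 of 10 stromal markers, and the endothelial-like cluster 4 of 11 epithelial markers with Epcam at 688 CPM. Cluster 7 of the medium and cluster 1 of the large tumor were named epithelial-like on 3 of 11 markers. In the medium tumor Epcam stood at 200 CPM in cluster 7 and 213 CPM in cluster 5, no higher than the 215 CPM of its mesothelial-like cells. The summed epithelial markers stood there at 6004, 11145 and 2876 CPM in the same order. Epcam stood at 86.4 CPM in cluster 1 of the large tumor, against 88.0 CPM in its stromal-like and 76.5 CPM in its macrophage-like cells, while the summed epithelial markers stood at 2981, 763 and 229 CPM in the same order, so Epcam does not bear out the name of that cluster. The T cell list summed to 42 UMIs and the NK list to 4 UMIs in the whole medium tumor, and to 4 and 12 UMIs in the large one.

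Of the 9 genes, 7 lie on chromosome 17, where Psmb9, Tap1, Psmb8 and Tap2 follow each other between 34181987 and 34216321 with no other gene of the pathway between them, H2-K1 lies at 33996017 to 34000347 and H2-D1 at 35262730 to 35267499 (GRCm38). B2m is on chromosome 2 (122147686 to 122153083) and Nlrc5 on chromosome 8 (94434356 to 94527272). RefSeq promoter windows of 300 bases, 250 before and 50 after a start site, were at hand for 7 of the 9 genes. They are shown for both heavy chains, each the other's closest match over all 14 clusters of the medium size tumor (r = 0.97), and for B2m and Psmb8, whose levels did not follow the heavy chains in every carcinoma cluster. Capitals mark a match, on either strand, to GGGNNTTCC (NF-kappa-B), TGACGC (CRE-like), the interferon-stimulated response element (GAAA, any 2 bases, GAAA) or TTCNNNGAA (gamma-activated site).
H2-K1 promoter, GRCm38.p6 chr17:34000284-34000583, minus strand: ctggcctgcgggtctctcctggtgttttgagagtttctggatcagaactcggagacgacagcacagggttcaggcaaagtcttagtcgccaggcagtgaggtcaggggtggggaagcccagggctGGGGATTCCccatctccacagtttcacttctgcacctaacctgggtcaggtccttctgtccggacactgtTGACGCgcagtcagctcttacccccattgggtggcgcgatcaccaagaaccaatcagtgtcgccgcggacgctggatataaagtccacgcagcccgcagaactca
H2-D1 promoter, GRCm38.p6 chr17:35262844-35263143, plus strand: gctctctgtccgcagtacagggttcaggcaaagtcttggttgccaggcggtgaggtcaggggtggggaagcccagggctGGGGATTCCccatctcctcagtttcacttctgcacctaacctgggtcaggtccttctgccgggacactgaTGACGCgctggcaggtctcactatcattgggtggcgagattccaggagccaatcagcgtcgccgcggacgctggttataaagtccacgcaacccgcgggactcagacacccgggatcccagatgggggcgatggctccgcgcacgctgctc
B2m promoter, GRCm38.p6 chr2:122147437-122147736, plus strand: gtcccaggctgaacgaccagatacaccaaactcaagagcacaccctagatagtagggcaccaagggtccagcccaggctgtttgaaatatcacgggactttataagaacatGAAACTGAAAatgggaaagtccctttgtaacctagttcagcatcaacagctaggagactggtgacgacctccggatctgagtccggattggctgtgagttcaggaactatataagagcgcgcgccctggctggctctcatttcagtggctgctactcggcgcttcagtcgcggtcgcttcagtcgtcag
Psmb8 promoter, GRCm38.p6 chr17:34197945-34198244, plus strand: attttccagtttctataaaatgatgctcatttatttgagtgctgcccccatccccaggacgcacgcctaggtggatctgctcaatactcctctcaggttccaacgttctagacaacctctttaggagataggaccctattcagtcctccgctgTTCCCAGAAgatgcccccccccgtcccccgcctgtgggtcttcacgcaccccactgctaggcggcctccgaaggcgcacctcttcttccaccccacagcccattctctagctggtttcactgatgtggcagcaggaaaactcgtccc
The heavy-chain windows each held the same NF-kappa-B match, GGGGATTCC, and the same CRE-like match, and no match to the exact letters of either interferon motif. B2m held the interferon-stimulated response element and Psmb8 the gamma-activated site. Of all 32851 RefSeq windows of this length, 5.82% held the NF-kappa-B letters, 7.40% the CRE-like letters, 3.44% the interferon-stimulated response element and 8.30% the gamma-activated site. The windows of Psmb9 and Tap1, which are read in opposite directions and share 275 bases, held none of the 4, nor did that of Tapbp. A match is a description of the letters and not a bound site. Only exact letters were searched, so a window without a match may still hold a variant of a site.

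The first comparison asks how the carcinoma cells' class I RNA compared with that of the macrophages beside them. In the medium tumor 8 of the 9 genes were higher in macrophage-like than in epithelial-like cells, where a gene is called at a ratio of at least 2 with an interval that leaves out 1, and 9.4% of the 10897 genes with at least 50 UMIs in both groups together were called higher and 24.6% lower. Of the 9, 8 had that many UMIs and 7 of those 8 were called. The median ratio was 7.22 for the 9 genes and 0.702 for all genes tested. Tapbp was the exception.

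**Figure D1:**
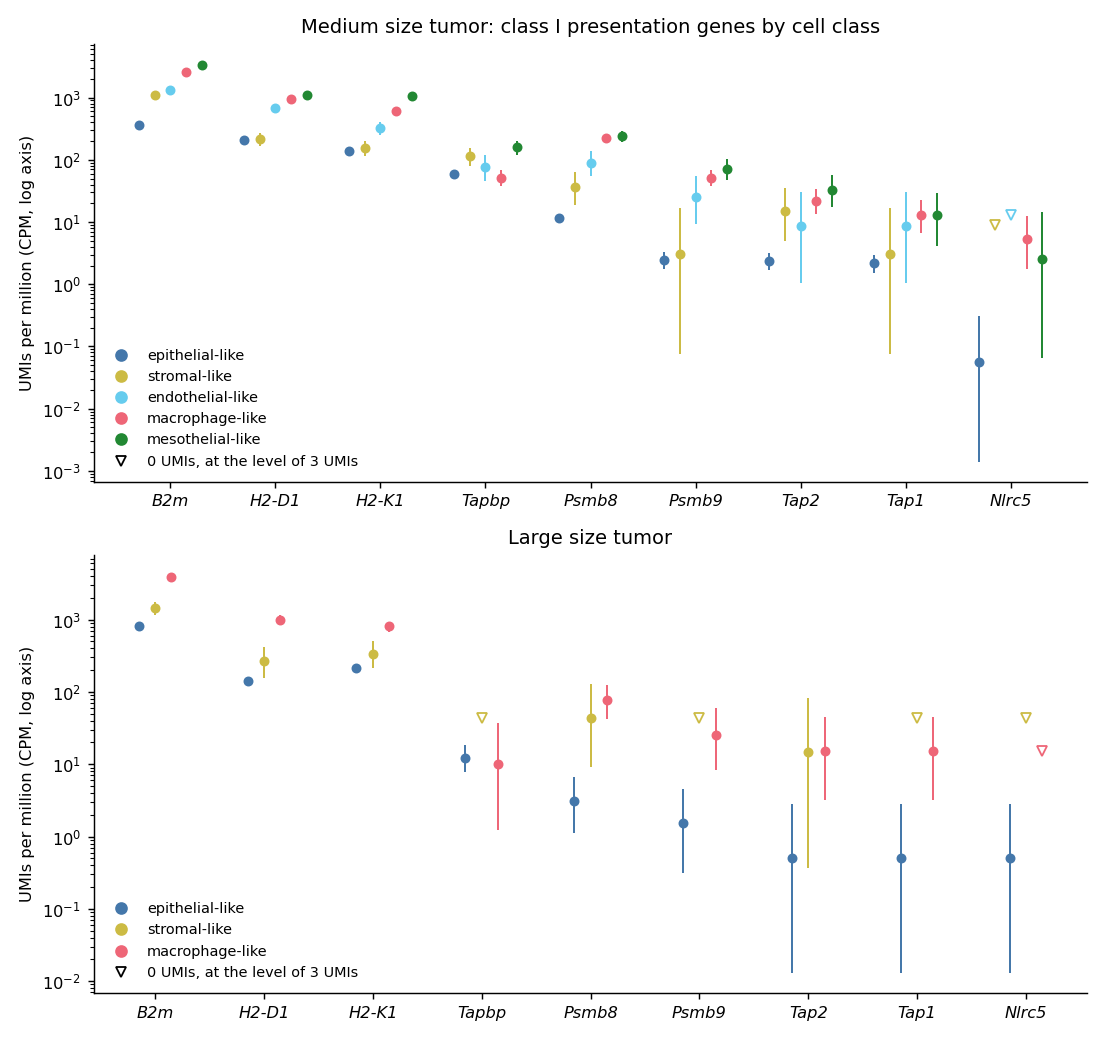
Levels of the 9 class I presentation genes in CPM (log axis) by cell class, in the medium (top) and large tumor (bottom), with bars for the 95% counting interval and open triangles for 0 UMIs, drawn at the level of 3 UMIs. In the medium tumor every gene but Tapbp and Nlrc5 had its lowest point in epithelial-like cells, and the mesothelial-like cells had the highest B2m, at 3300 CPM. The stromal-like interval overlapped the epithelial-like one for H2-K1, H2-D1, Psmb9 and Tap1, and the endothelial-like interval did for Tap1 and Tap2.

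B2m, the light chain of every class I molecule, stood at 362 CPM (353 to 371, 6550 UMIs) in epithelial-like cells, and its 2613 CPM (2510 to 2720) in macrophage-like cells was 7.22 times as high (6.89 to 7.57). H2-D1, a classical heavy chain, stood at 208 CPM (201 to 215) in carcinoma cells, and its 962 CPM (900 to 1028) in macrophage-like cells was 4.63 times as high (4.298 to 4.98). H2-K1, the other classical heavy chain, stood at 138 CPM (132 to 143) in carcinoma cells, and its 603 CPM (554 to 655) in macrophage-like cells was 4.38 times as high (3.99 to 4.81). None of these intervals overlapped between the classes. The heavy chains are near-identical copies of each other and of the H2-Q genes over much of their length, so reads that fit both could have been dropped or split, and the division of UMIs between them is uncertain.

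The immunoproteasome genes were further apart than the chains. Psmb8, which takes the place of Psmb5 in the proteasome, stood at 11.5 CPM (9.99 to 13.2, 208 UMIs) in 2331 epithelial-like cells and at 227 CPM (197 to 260, 209 UMIs) in 238 macrophage-like cells, a ratio of 19.7 (16.2 to 24.04). Psmb9, which takes the place of Psmb6, stood at 2.43 CPM on 44 UMIs and 51.1 CPM on 47 UMIs, a ratio of 20.99 (13.6 to 32.4). Nearly equal numbers of molecules thus came from classes of very unequal size.

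The transport and loading genes showed more than 1 pattern. Tap1, one subunit of the peptide pump, stood at 2.16 CPM (39 UMIs) and 13.03 CPM (12 UMIs), a ratio of 6.05 (2.88 to 11.8). Tap2, its partner, stood at 2.38 CPM (43 UMIs) and 21.7 CPM (20 UMIs), a ratio of 9.14 (5.09 to 15.9). Tapbp stood at 59.8 CPM (56.3 to 63.5) in the epithelial-like and 51.1 CPM (37.5 to 67.9) in macrophage-like cells, so the intervals overlapped, and its ratio was 0.854 (0.623 to 1.14). Nlrc5 had 1 UMI in all epithelial-like and 5 UMIs in all macrophage-like cells, a ratio of 98.3 with a counting interval from 11.0 to 4648, and a median or spread of its level cannot be drawn from so few molecules.

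Macrophage-like cells held fewer UMIs per cell, a median of 3516 against 5980, and the part of depth in the ratios was not tested. Per cell rather than in CPM, the mean count in macrophage-like cells was 2.18 times that in epithelial-like cells for H2-K1, 2.31 times for H2-D1, 3.60 times for B2m, 9.84 times for Psmb8 and 10.5 times for Psmb9, so the direction held for these and the sizes were smaller, while Tapbp fell to 0.425 times, a lower call. Scaling with trimmed means (TMM) in place of CPM gave larger ratios, 5.80 for H2-K1 and 26.1 for Psmb8. It moved the median of all genes by 0.40 on the log2 scale and raised the share of higher calls among all calls from 27.7% to 46.9%.

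**Figure D2:**
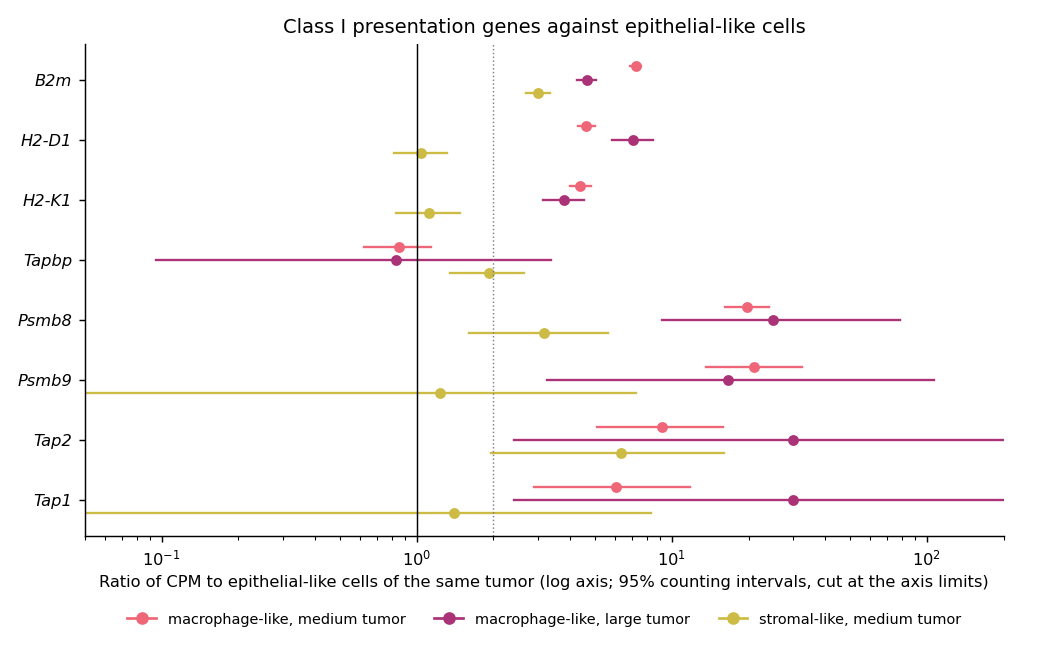
Ratio of CPM to the epithelial-like cells of the same tumor (log axis) for 8 genes, in macrophage-like cells of both tumors and in stromal-like cells of the medium tumor, with 95% counting intervals cut at the axis limits. The solid line marks 1 and the dotted line 2, and Tapbp is the one gene whose macrophage-like points lie below 1, at 0.854 and 0.832.

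RNA released by macrophages during dissociation can give UMIs in other cells, so the levels were read against it. The 11 macrophage markers together stood in the epithelial-like cells at 0.791% of their level in macrophage-like cells, with a median of 0.858% and a highest value of 3.02% over single markers, and none was at 0. H2-K1 stood at 22.8%, H2-D1 at 21.6%, B2m at 13.9%, Tap1 at 16.5%, Tap2 at 10.9%, Psmb8 at 5.06% and Psmb9 at 4.76% of the macrophage-like level. Over all epithelial-like cells of the medium tumor these 7 lay above the highest marker, while Nlrc5, at 1.02%, did not. The class II genes, which mark antigen-presenting cells, gave a level of the same kind: Cd74, the invariant chain, stood at 46.8 CPM in epithelial-like and 5306 CPM in macrophage-like cells, a ratio of 113. Leaving out every epithelial-like cell with a UMI of C1qa, C1qb, C1qc or Tyrobp kept the same count of 8 higher genes.

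Stromal-like cells gave a different profile. In the medium tumor 3 of the 9 genes were called higher in stromal-like than in epithelial-like cells, beside 9.49% of all genes tested called higher and 9.71% lower. At 50 UMIs or more it was 2 of 5. B2m was one, at 1087 CPM (978 to 1206) and a ratio of 3.00 (2.69 to 3.34). Psmb8 was another, at 36.1 CPM on 12 UMIs and a ratio of 3.14 (1.60 to 5.61), and Tap2 the third, at 15.1 CPM on 5 UMIs and a ratio of 6.34 (1.96 to 16.0). The heavy chains were not called: H2-K1 stood at 154 CPM (114 to 202), a ratio of 1.12 (0.830 to 1.47), and H2-D1 at 217 CPM (170 to 273), a ratio of 1.04 (0.815 to 1.32). Tapbp stood at 114 CPM (81.0 to 157), a ratio of 1.91 (1.35 to 2.64), just under the call. Psmb9 and Tap1 had 1 UMI each and Nlrc5 none among 67 cells, which allows up to 9.04 CPM. Per cell, B2m was no longer called, at 1.92 times the epithelial-like mean.

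Set against stromal-like cells, the macrophage-like cells were higher in H2-K1 by 3.92 times (2.94 to 5.34), H2-D1 by 4.44 times (3.49 to 5.72), B2m by 2.40 times (2.15 to 2.69), Psmb8 by 6.28 times (3.52 to 12.4) and Psmb9 by 16.9 times (2.90 to 683). These 5 of 9 were called higher, beside 17.3% of all genes tested, and at 50 UMIs or more it was 4 of 5. Per cell, B2m was no longer called here either, at 1.88 times. Tapbp was called lower, at 0.446 (0.285 to 0.703), beside 15.6% of genes. In CPM the order of the 3 classes therefore depended on the gene: macrophage-like above stromal-like above epithelial-like for B2m and Psmb8, macrophage-like above 2 classes that overlapped for the heavy chains, and stromal-like above the other classes for Tapbp.

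The mesothelial-like cells, which line the organ's outer surface, held the highest level of several of the 9 genes. H2-K1 stood there at 1078 CPM (977 to 1186), H2-D1 at 1091 CPM (990 to 1199), B2m at 3300 CPM (3122 to 3485), Psmb8 at 238 CPM (192 to 291) and Tapbp at 158 CPM (121 to 203). Against epithelial-like cells 8 of the 9 were called higher, beside 8.1% of genes called higher and 9.98% lower, and at 50 UMIs or more it was 7 of 7. Against macrophage-like cells H2-K1 was 1.79 times (1.57 to 2.03) and Tapbp 3.10 times (2.09 to 4.63) as high, and Psmb8 stood at 1.05 (0.811 to 1.34). Tapbp was the 1 of 9 called, beside 13.8% of genes called higher and 17.6% lower. Macrophage markers in these cells stood at 3.21% of the macrophage-like level. In the endothelial-like cells H2-D1 stood at 679 CPM (578 to 793), B2m at 1320 CPM (1178 to 1475) and Psmb8 at 89.1 CPM (55.2 to 136), and 5 of the 9 were called higher than in epithelial-like cells, beside 8.08% of genes called higher and 4.13% lower.

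The exchange of proteasome subunits can be read as a share within each pair, which is not scaled by the group's total. Of the UMIs of Psmb8 and Psmb5, Psmb8 took 3.04% (2.65 to 3.48) in epithelial-like, 11.4% (6.05 to 19.1) in stromal-like, 24.4% (15.8 to 34.9) in endothelial-like, 49.9% (45.0 to 54.8) in macrophage-like and 58.5% (50.4 to 66.2) in mesothelial-like cells. The epithelial-like share overlapped no other. The macrophage-like and mesothelial-like shares overlapped, as did the stromal-like and endothelial-like shares. Psmb9 took 0.695% (0.505 to 0.932) of its pair with Psmb6 in epithelial-like, 12.9% (9.62 to 16.8) in macrophage-like and 22.6% (15.6 to 31.0) in mesothelial-like cells. Psmb10, the third inducible subunit, which is no member of the 9, took 19.2% (18.1 to 20.4) of its pair with Psmb7 in epithelial-like and 41.0% (33.8 to 48.5) in macrophage-like cells. Psmb5 itself stood at 366 CPM in epithelial-like and 228 CPM in macrophage-like cells, a ratio of 0.623 (0.540 to 0.714) that was not called.

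**Figure D3:**
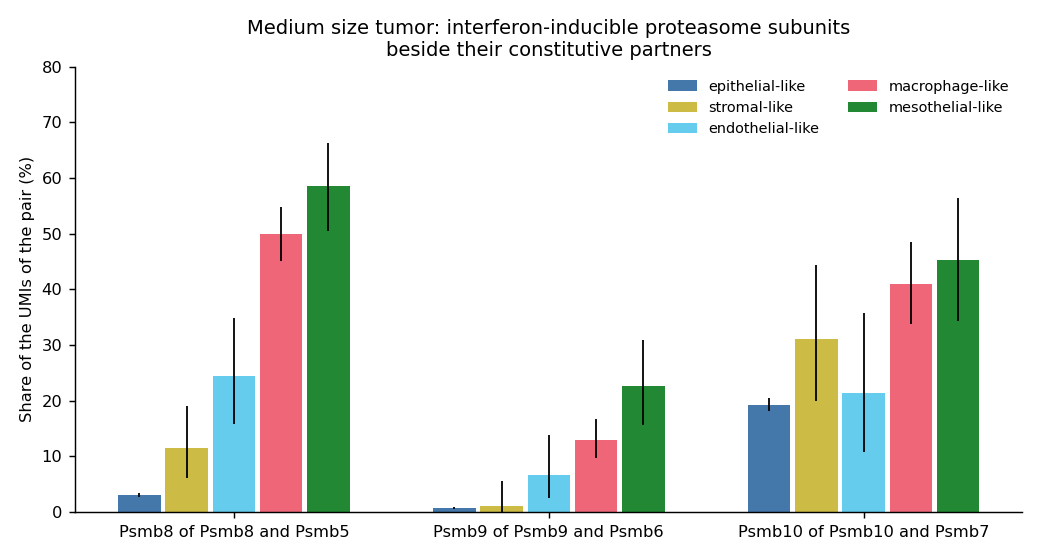
Share (%) of the UMIs of each subunit pair taken by the interferon-inducible subunit, in 5 cell classes of the medium tumor, with exact binomial 95% intervals. Psmb8 and Psmb9 took 3.04% and 0.695% of their pairs in epithelial-like cells, below every other class for Psmb8, while Psmb10 already took 19.2%.

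The second question is how far carcinoma states differ among themselves. Between the highest and the lowest of the 8 epithelial-like clusters of the medium tumor, 8 of the 9 genes passed the call, beside 72.8% of all genes tested, so a share this high is not a result about these genes. The clusters were formed on the same counts, with B2m and Psmb8 among the variable genes, so the levels below are a description. H2-K1 ran from 56.3 CPM (46.1 to 68.0) in cluster 7, led by Inhba and Bmp2, to 283 CPM (258 to 310) in cluster 4, led by Tff3 and Ly6d, a ratio of 5.02. H2-D1 ran between the same clusters, from 115 CPM (100 to 131) to 459 CPM (427 to 493), a ratio of 4.00. Both chains put the 8 clusters in nearly 1 order, and the lowest levels were those of clusters 7, 5 (led by Yap1 and Birc2), 3 (led by the cell cycle genes Ube2c and Birc5) and 2 (led by Mcpt8 and Cldn6).

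B2m followed another order. It was highest in cluster 6, led by Krt17, at 670 CPM (633 to 709), and lowest in cluster 1, led by the gastric gene Gkn1, at 243 CPM (225 to 261), a ratio of 2.76. Cluster 7, lowest for both heavy chains, held 451 CPM of B2m (422 to 483), level with the 444 CPM (412 to 478) of cluster 4, which was highest for both. B2m UMIs per heavy-chain UMI (H2-K1 and H2-D1 together) were therefore 2.64 (2.32 to 3.01) in cluster 7 and 0.599 (0.545 to 0.657) in cluster 4. Clusters 5, 2 and 6 stood at 1.45, 1.40 and 1.38, clusters 1 and 8 near the lowest value, at 0.658 and 0.712, and the macrophage-like cells at 1.67 (1.56 to 1.78).

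Psmb8 was highest in cluster 8, led by Dmbt1 and Lcn2, at 28.6 CPM (20.3 to 39.3) on 38 UMIs, and lowest in cluster 1, at 4.76 CPM (2.60 to 7.99) on 14 UMIs. Its share of the pair with Psmb5 was 11.5% (8.25 to 15.4) in cluster 8 and 1.196% (0.655 to 1.998) in cluster 1. Psmb9, Tap1 and Tap2 had at most 16 UMIs in any epithelial-like cluster. Psmb9 and Tap1 were highest in cluster 4, with 16 and 9 UMIs, and lowest in cluster 5, with 1 UMI each, and Tap2 ran from 2 UMIs in cluster 5 to 10 UMIs in cluster 8. Tapbp ran from 32.1 CPM (24.6 to 41.2) in cluster 7 to 91.2 CPM (77.7 to 106) in cluster 6. The single Nlrc5 UMI of the carcinoma cells lay in cluster 8. Set against each cluster's own highest macrophage marker, Psmb8 lay below it in cluster 1 (2.10% of the macrophage-like level against 3.56%), cluster 5 (2.65% against 2.94%) and cluster 7 (3.25% against 9.17%). By that limit its levels and pair shares there are not above background. The median marker stood lower, at 0.967%, 0.681% and 1.39% in the same order. Psmb9 lay below the highest marker in clusters 1, 2, 3, 5, 6 and 7, Tap1 in clusters 5 and 7, and Tap2 in cluster 7. H2-K1 in cluster 7, at 9.34%, lay barely above the highest marker.

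**Figure D4:**
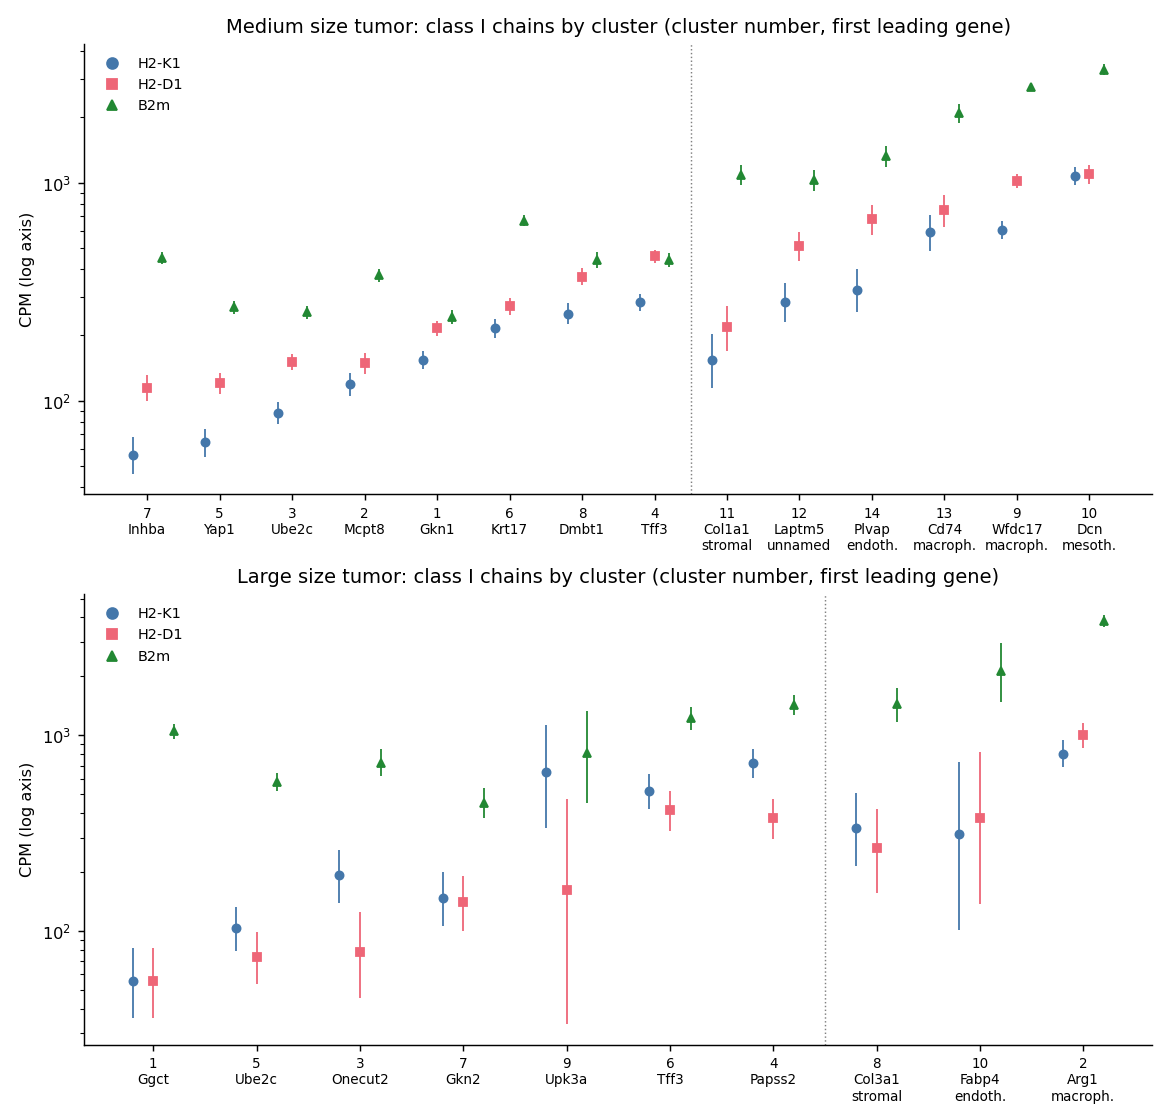
H2-K1, H2-D1 and B2m in CPM (log axis) in every cluster of the medium (top) and large tumor (bottom), with 95% counting intervals, ordered by the summed heavy chains within epithelial-like clusters (left of the dotted line) and within the other clusters. The heavy chains climb from cluster 7 to cluster 4 in the medium tumor, while B2m stands at 451 and 444 CPM in those 2 clusters.

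The heavy chains ran against vimentin (Vim), a filament gene of mesenchymal cells, over the epithelial-like clusters. Summed H2-K1 and H2-D1 stood at 621 to 742 CPM in clusters 8 and 4, where Vim stood at 42.9 and 61.8 CPM, and at 184 and 171 CPM in clusters 5 and 7, where Vim stood at 1571 and 1570 CPM. Over the 8 clusters Pearson r of the log2 levels was -0.97 and Spearman rho -0.95. In the large tumor r was -0.92 and rho -0.96 over 7 clusters. Heavy chain stood at 933 CPM in cluster 6, 177 CPM in cluster 5 and 111 CPM in cluster 1. Vim stood at 16.8, 1059 and 1644 CPM in the same order. In cluster 1 neither heavy chain was above the highest macrophage marker, as given further on, and Epcam does not bear out that cluster's name. Clusters 4 and 6, set apart further on, lay at the other end, and no r without these clusters was computed. Clusters of 1 tumor share a library, and other measures moved along: r with Epcam was 0.95 and 0.63 (rho 0.93 and 0.75), and r with the median depth of a cluster was -0.77 and -0.67 (rho -0.90 and -0.46). Per cell, the heavy chains came to 1.41 UMIs in cluster 7 and 1.94 in cluster 5, against 4.11 in cluster 4 and 3.63 in cluster 8, but cluster 3, at 2.83, lay above cluster 1, at 2.40. The part of depth in this relation was not tested. Over single epithelial-like cells of the medium tumor, thinned to 2500 UMIs each, rho between heavy chains and Vim was -0.28, but within single clusters it ran from -0.11 in cluster 5 to 0.08 in cluster 7 and was above 0 in clusters 4, 7 and 8. In the large tumor it was -0.15 over all epithelial-like cells. The relation over clusters was thus hardly seen among the cells of 1 cluster.

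**Figure D5:**
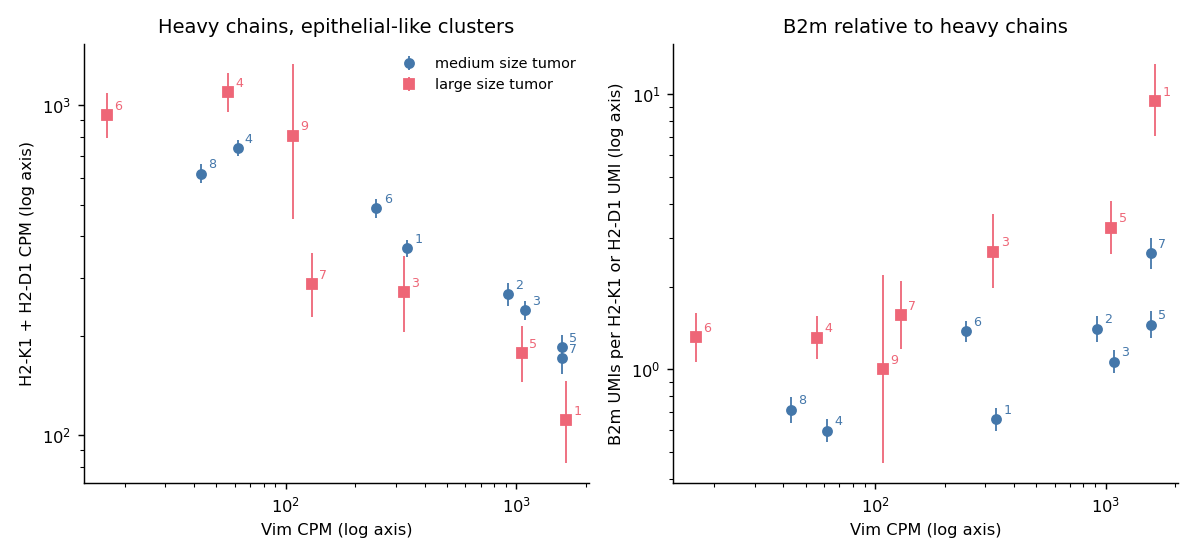
Summed H2-K1 and H2-D1 level (left, CPM) and B2m UMIs per heavy-chain UMI (right) against Vim (CPM) for the epithelial-like clusters of both tumors, on log axes, with 95% counting intervals and cluster numbers beside the points. The heavy chains are lower where Vim is higher in both tumors, and the clusters with the highest B2m per heavy chain, 2.64 in the medium and 9.44 in the large tumor, are those with Vim at 1570 and 1644 CPM, while cluster 5 of the medium tumor, with Vim at 1571 CPM, stands at 1.45. In cluster 1 of the large tumor neither heavy chain is above the highest macrophage marker.

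In thinned cells of the medium tumor, the median epithelial-like cell held 1 heavy-chain UMI, 1 B2m UMI and 2 UMIs of the 9 genes together, against 4, 6 and 11 in the median macrophage-like cell. No heavy-chain UMI was seen in 43.3% (41.3 to 45.3) of the epithelial-like and 6.72% (3.89 to 10.7) of the macrophage-like cells. The share ran from 15.8% in cluster 4 to 68.3% in cluster 7. At this depth a cell without a UMI is not a cell without class I. Single cells of clusters 2 and 3 held up to 29 and 25 UMIs of the 9 genes, against 8 to 12 in the other epithelial-like clusters.

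Macrophage-like cells fell into clusters 9 (197 cells, led by Wfdc17 and Chil3) and 13 (41 cells, led by Cd74 and C1qa). Of the 9 genes none was called different between them, beside 5.89% of genes called higher and 3.58% lower in cluster 13. Among the genes whose interval left out 1, Psmb8 came nearest to a call. It stood at 339 CPM (261 to 433) in cluster 13 and 198 CPM (167 to 233) in cluster 9, a ratio of 1.71 (1.25 to 2.31). B2m went the other way, with 2081 CPM (1880 to 2297) in cluster 13 and 2751 CPM (2632 to 2874) in cluster 9, 0.757 times as much (0.677 to 0.843). H2-K1 stood at 593 and 605 CPM.

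In the large tumor, read at far lower depth, 7 of the 9 genes were called higher in macrophage-like than in epithelial-like cells, beside 9.1% of 4693 genes called higher and 22.1% lower. Those shares cover genes with at least 50 UMIs, which 3 of the 9 reached, all 3 called, and the other 4 calls rest on 4 to 21 UMIs each. In epithelial-like cells Psmb8, at 4.01% of the macrophage-like level, and Tap1 and Tap2, at 3.34% each, lay below the highest macrophage marker, at 5.01%. They lay above the median marker, at 0.978%. Read against the highest marker, their levels there are not above background. B2m stood at 830 CPM (790 to 871) in epithelial-like and 3849 CPM (3579 to 4133) in macrophage-like cells, a ratio of 4.64 (4.25 to 5.06). H2-D1 stood at 142 and 999 CPM, a ratio of 7.04 (5.83 to 8.48), and H2-K1 at 213 and 805 CPM, a ratio of 3.77 (3.12 to 4.54). Per cell the ratios were 2.24 for B2m, 3.40 for H2-D1 and 1.82 for H2-K1, which was then no longer called. Psmb8 had 6 UMIs in 1219 epithelial-like and 15 UMIs in 253 macrophage-like cells, a ratio of 24.96 (9.15 to 78.5). Psmb9 had 3 and 5 UMIs, a ratio of 16.6 (3.24 to 107), and Tap1 and Tap2 had 1 and 3 UMIs each, a ratio of 29.95 (2.41 to 1572). Tapbp had 24 and 2 UMIs, a ratio of 0.832 (0.0953 to 3.35), and Nlrc5 had 1 UMI in the epithelial-like cells and none in the macrophage-like cells, which allows up to 15.3 CPM. In the stromal-like cells B2m stood at 1438 CPM (1167 to 1753), H2-K1 at 338 CPM (214 to 506) and H2-D1 at 264 CPM (157 to 417). Psmb8, with 3 UMIs, was the 1 of 9 called higher there, beside 5.94% of genes called higher and 7.23% lower.

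Between the highest and lowest epithelial-like clusters of the large tumor 4 of the 9 genes were called, beside 46.5% of genes. That count is therefore not a result about these genes, and the levels are a description. H2-K1 ran from 55.4 CPM (35.9 to 81.8) in cluster 1, led by Ggct and Ramp1, to 718 CPM (605 to 847) in cluster 4, led by the intestinal genes Papss2 and Fabp1, and H2-D1 from 55.4 CPM in cluster 1 to 413 CPM (325 to 519) in cluster 6, led by Tff3 and Lgals2. In cluster 1 H2-K1 stood at 6.88% and H2-D1 at 5.55% of the macrophage-like level, below the highest macrophage marker there, at 8.45%. The median marker there stood at 0.673% and the 11 summed at 0.707%, below both heavy chains. Read against the highest marker, neither heavy chain was above background, so no fold is given. B2m, at 1046 CPM (954 to 1145), stood at 27.2% of the macrophage-like level. B2m per heavy-chain UMI was 9.44 (7.04 to 12.9) in cluster 1 and 1.302 (1.09 to 1.56) in cluster 4. The value of cluster 1 rests on 50 heavy-chain UMIs that are not above the highest macrophage marker. When the pathway genes were left out of the clustering, 277 of its 279 cells again fell together, but that cluster stayed unnamed.

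Clusters 4 and 6 of the large tumor held 1095 and 933 CPM of summed heavy chains. The 17 cells of cluster 9 held 808 CPM (453 to 1333) on 15 UMIs, and the other 4 epithelial-like clusters held 111 to 287 CPM. Set against the other epithelial-like cells, cluster 9 included, H2-K1 was 5.37 times (4.40 to 6.54), H2-D1 4.80 times (3.77 to 6.13) and B2m 1.86 times (1.67 to 2.07) as high, and 3 of the 9 were called, beside 13.6% of genes. Clusters 4 and 6 are those with the most heavy chain among the epithelial-like clusters, so these ratios and calls are a description and not a test. Per cell the ratios were 2.93 for H2-K1, 2.62 for H2-D1 and 1.02 for B2m, so B2m did not stand apart in that unit. The third call was Psmb9, with 3 UMIs against none, too few for a fold. H2-Q2, another class I gene, had 116 UMIs in these 369 cells and 3 in the other 850, a ratio of 163 (54.5 to 803). It was among the variable genes on which the clusters of this tumor were formed, so this ratio is a description too. In the medium tumor H2-Q2 had 33 UMIs in all epithelial-like cells. Psmb8 had 2 UMIs against 4, a ratio of 2.11 (0.191 to 14.7), so that no difference was detectable at this depth. In the other epithelial-like cells Psmb8 stood at 3.30% of the macrophage-like level, below the highest macrophage marker there, at 5.85%. Of 14 constitutive proteasome genes 7 were lower in the pair, beside 23.6% of genes.

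Between the epithelial-like cells of the large and the medium tumor 3 of the 9 genes were called, 1 higher and 2 lower in the large tumor. B2m was higher in the large tumor, at 2.29 times (2.17 to 2.42), beside 6.86% of genes called higher. Per cell, a unit that carries the gap in depth, the direction reversed, with 1.33 B2m UMIs in the large and 2.81 in the medium tumor. Psmb8 was lower, at 0.266 (0.0967 to 0.590), and Tapbp was lower, at 0.205 (0.131 to 0.306), beside 19.2% called lower. Counts of 1 higher and 2 lower in 9 lie near these shares, so they are not a result about these genes. Psmb8 in the large tumor, at 4.01% of the macrophage-like level, lay below the highest macrophage marker, at 5.01%, so its ratio rests on a level not above that limit. H2-K1 stood at 1.55 (1.40 to 1.72) and H2-D1 at 0.683 (0.602 to 0.771). With clusters 4 and 6 set aside, beside 6.08% of genes called higher and 19.5% lower, H2-D1 joined the lower genes at 0.395 (0.329 to 0.471), H2-K1 turned to 0.845 (0.724 to 0.982), and B2m, at 1.97, was no longer called. Psmb9 had 0 UMIs there against 44, which, read against 3 counts, allows a ratio of up to 0.779. In macrophage-like cells Tapbp and Psmb8 were lower too, at 0.200 (0.0235 to 0.763) and 0.337 (0.185 to 0.568), beside 7.49% of genes called higher and 11.8% lower. Among stromal-like cells Tapbp had 0 UMIs in the large and 38 UMIs in the medium tumor, and H2-K1 was higher at 2.20 times (1.28 to 3.66), beside 9.47% of genes called higher and 17.8% lower.

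The libraries also differed along the base composition of the RNA. Over all genes with at least 50 UMIs, and without those same clusters, the median ratio of large to medium fell from 1.25 in the lowest to 0.479 in the highest of 10 equal bins of GC content at the transcript end (the last 500 bases). B2m, at 35.0% GC, lay in bin 1, Psmb8, at 53.7%, in bin 9 and Tapbp, at 58.7%, in bin 10. Within those bins B2m lay at the 85.1 percentile, Psmb8 at the 14.4 percentile and Tapbp at the 13.7 percentile. The part of GC content in these 3 differences was not tested.

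Of the pathway's other genes, the tables held 13 heavy chains outside the classical pair. In the medium tumor 5 of them had at least 50 UMIs and all 5 were called higher in macrophage-like than in epithelial-like cells, among them H2-M3 at 12.5 times (7.66 to 20.3), H2-Q7 at 12.3 times (6.66 to 22.1) and H2-T22 at 2.39 times (1.66 to 3.35). In the large tumor the 1 with that many UMIs, H2-Q2, was called lower, at 0.0839 (0.00211 to 0.477), with 1 UMI in macrophage-like and 119 in epithelial-like cells. Of the 14 constitutive proteasome genes none was called in either direction, with a median ratio of 0.759, beside 9.4% of all genes called higher and 24.6% lower. Psmb10 stood at 1.74 (1.36 to 2.21), and the activator genes Psme1 and Psme2 at 1.05 and 1.03. Of 5 further loading genes Erap1, which trims peptides, was higher at 3.39 times (1.54 to 6.69), and the chaperones Calr, Canx and Pdia3 stood at 0.917, 1.102 and 0.769.

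Of 10 transcription regulators with enough UMIs, Nfkb1, an NF-kappa-B subunit, was the 1 called, which is close to the 9.4% of all genes called higher, at 265 CPM against 54.5 CPM, a ratio of 4.86 (4.21 to 5.60). Irf1 stood at 1.90 (1.12 to 3.04). Among the interferon receptors Ifnar2 was higher at 2.12 times (1.55 to 2.85), and Ifngr1 stood at 0.966 (0.775 to 1.19). Of the 4 negative regulators Nbr1, which sorts class I to autophagy, was lower at 0.476 (0.259 to 0.805), and 1 of 4 is close to the 24.6% of all genes called lower. Of the ligands, Ifng had 0 UMIs and Ifnb1 1 UMI in the whole medium tumor.

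Over all 14 clusters of the medium tumor, the genes most like the summed 9 were Ifi27l2a (r = 0.94), an interferon-induced gene, and Celf2 (0.93), Ssh2 (0.92), Arl5b (0.91) and Nfkb1 (0.90), out of 7830 genes with at least 200 UMIs and by the correlation of log2(CPM + 10). Single genes of the 9 paired off. H2-K1 was most like H2-D1 (0.97) and the reverse, Psmb9 and Tap1 were most like Psmb8 (0.96 and 0.94), as was B2m (0.95), Psmb8 was most like Ifi27l2a (0.96), Tap2 most like Celf2 (0.96) and Tapbp most like Stmn2 (0.85). These clusters come from 1 library and mix cell classes, so the values describe shared level over classes.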

How the data were processed

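The deposited files are 1 table of counts per tumor, in which the authors pooled 4 technical replicates; the submitters' processing notes name Cell Ranger and mm10, and the version is not given in the sources used here. Per the labels the libraries were 10x Chromium 3' v2. The tables were used as deposited, with no cell removed: 20301669 UMIs (2704 to 47440 per cell) in the medium and 2239012 UMIs (529 to 11294 per cell) in the large size tumor. The 13 mitochondrial rows were at 0. Scrublet (scanpy 1.11.5) marked 0 and 9 cells (0.587%) as doublets. At under 0.5% the caller is taken not to have worked on the medium size tumor, so doublets were left in, and the highest 5% of scores were left out as an alternative.

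Cells were clustered with Seurat 5.3.0 (log-normalised to 10000, 2000 variable genes, 10 components, resolution 0.8). A cluster took a name from a marker list with at least 3 markers in at least 10% of its cells and at 25% or more of the highest cluster's level, unless another list reached 60% of its markers. These limits, the 9 genes and all lists were chosen with earlier results of these data known. Counts were summed per class or cluster and divided by the group's total (CPM). A gene was called at a ratio of 2 or more, or 0.5 or less, whose 95% interval left out 1. Leading genes are the largest ratios to all other cells with 10 CPM added, among genes in 25% of a cluster's cells. A level of 0 was read against 3 counts. Other genes were named as at most 4 per list with the most UMIs or the largest ratio at 50 UMIs or more, and the genes most like the 9 by rank of r. Gene positions are from GENCODE M21 (GRCm38), where 95.3% of the symbols were found, and promoters from RefSeq. Vim and H2-Q2 were singled out after their values were seen. Intervals and floors cover counting error only. The ratio script was tested on simulated counts. Alternatives were other clusterings, cell-by-cell classes, thinning to 2500 or 500 UMIs, single-cell means, TMM (edgeR 4.0.16), and leaving out cells with macrophage UMIs. Those by UMIs per cell and without single clusters were chosen after seeing the data. One allele of the mice and one gene of the interferon signalling list are not reported here.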

Additional observations from a re-analysis of the deposited data

Results flagged for a closer look

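Of the UMIs of H2-K1 and H2-D1, H2-K1 took 39.8% (38.6 to 41.0) among epithelial-like cells of the medium tumor and 60.1% (56.3 to 63.7) among those of the large tumor. These lie on opposite sides of an even division. Without clusters 4 and 6 the share in the large tumor was 58.6% (52.9 to 64.1). In macrophage-like cells the share was 38.5% (36.0 to 41.1) and 44.6% (39.4 to 49.98). All 8 epithelial-like clusters of the medium tumor lay between 32.9% and 44.6%. The 7 of the large tumor ran from 50% (35.5 to 64.5) in cluster 1 to 80% (51.9 to 95.7) in cluster 9, and in clusters 1, 5, 6 and 7 the interval held an even division. The difference was not tested, since each tumor is 1 library, and the near-identity of the 2 genes makes the division of reads uncertain. No check of outlying samples was possible, because the 4 technical replicates of each tumor are summed in 1 table.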

How the results depend on the processing

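Of 66 counts of called genes recomputed under alternatives, 65 stayed within 1.5 times the reported count. The exception was the comparison of epithelial-like cells between tumors by UMIs per cell, where 8 of the 9 genes were called, beside 96.8% of all genes, and B2m reversed to 0.474 times the medium level, in a unit that carries the gap in depth (median 1174 against 5980 UMIs per epithelial-like cell). Of 473 ratios of single genes, 394 stayed within their reported interval, 78 moved and 1 reversed. Trimmed-mean scaling moved the median of all genes between tumors by 0.16 on the log2 scale and the share of higher calls among all calls from 26.3% to 37.9%. Classes called cell by cell called 4 genes higher in stromal-like cells, with Psmb8 at 7.24 times, and thinning left 7 genes higher in the macrophage-like cells of the medium and 6 in those of the large size tumor. At resolution 0.4 and with 20 components no cluster was stromal-like, so no value could be given, and cell-by-cell classes give no clusters to compare. No paired analysis was possible because the technical replicates of each tumor are summed in 1 table, and for the same reason no replicate could be left out. Depth limits Nlrc5, Tap1, Tap2 and Psmb9, which had 1 to 3 UMIs each in the epithelial-like cells of the large size tumor.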
